A study of Homo sapiens with 4 samples.

Results

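The genes of the mitochondrial ribosomal proteins were followed in HaCaT cells, an immortalised human keratinocyte line, after exposure to a mix of cytokines. Members were all rows whose symbol is MRPL or MRPS, a number and at most 1 further letter. These were 76 of 27356 genes, 48 with an MRPL (large-subunit) symbol and 28 with an MRPS (small-subunit) symbol. Polyadenylated RNA was sequenced from 2 M5 libraries and 2 PBS libraries. M5 cells received IL-1α, IL-17, IL-22, TNF-α and Oncostatin M, each at 10 μg/L, and PBS cells received phosphate-buffered saline. Both were treated from a plating density of 50% and collected at 72 h. The treatment tag of the M5 libraries names 25 μM DAC instead, and the group was taken from the titles, which name M5. All 4 libraries came from 1 line, and the labels do not say whether the libraries of a group were separate cultures. The p-values therefore reflect variation between libraries that may be only technical.

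The libraries held 18992988 and 19749612 counts in M5, against 15858644 and 16051974 in PBS. All 8 keratinocyte markers listed reached an FPKM of 1 in every library, with a summed FPKM of 4239 to 4612 in M5 and 3188 to 3210 in PBS. No listed marker of fibroblasts, melanocytes, leukocytes or endothelium reached an FPKM of 1 in every library, and the summed FPKM of each list was at most 0.781 in any library. In bulk RNA, fewer cells that carry an RNA and less of it per cell cannot be told apart.

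Mitochondrial ribosomes translate the few messenger RNAs that the mitochondrial genome encodes, all for membrane subunits of the respiratory chain and of ATP synthase. Their RNAs come from the mitochondrial genome, whereas all of their proteins are encoded in the nucleus, made on cytosolic ribosomes and imported. Some of these proteins have bacterial homologues and others occur only in mitochondria.

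In M5, mitochondrial ribosomal protein genes were mostly lower, each by a small amount. Of the 76 members, 66 had a mean FPKM of at least 1 and were tested with edgeR's quasi-likelihood test, adjusted by the Benjamini-Hochberg method over all genes above that level. At an adjusted p under 0.05, 35 of the 66 were lower in M5, 53.0%, against 27.1% of all tested genes. Only MRPL33 and MRPS24 were higher, 2 of 66, against 28.8% of all tested genes. The remaining 29 were not called and had log2 fold changes between -0.25 and 0.11. A log2 fold change below 0 was found for 57 of the 66, against 51.2% of all tested genes.

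The median member differed by -0.22 on the log2 scale, a level 14.1% lower in M5, while the median of all tested genes was -0.01. Of the 35 genes that fell, 34 fell by less than 1.5-fold, and the smallest fall was 1.13-fold. Changes of at least 2-fold were called in MRPL24 and MRPS24, 2 of 66 members, against 9.61% of all tested genes. Both M5 libraries lay below both PBS libraries for 49 of the 66 members, against 39.4% of all tested genes. The 35 genes that fell are all among these 49. Both M5 libraries lay above both PBS libraries for 4 members, against 37.8% of all tested genes.

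**Figure D1:**
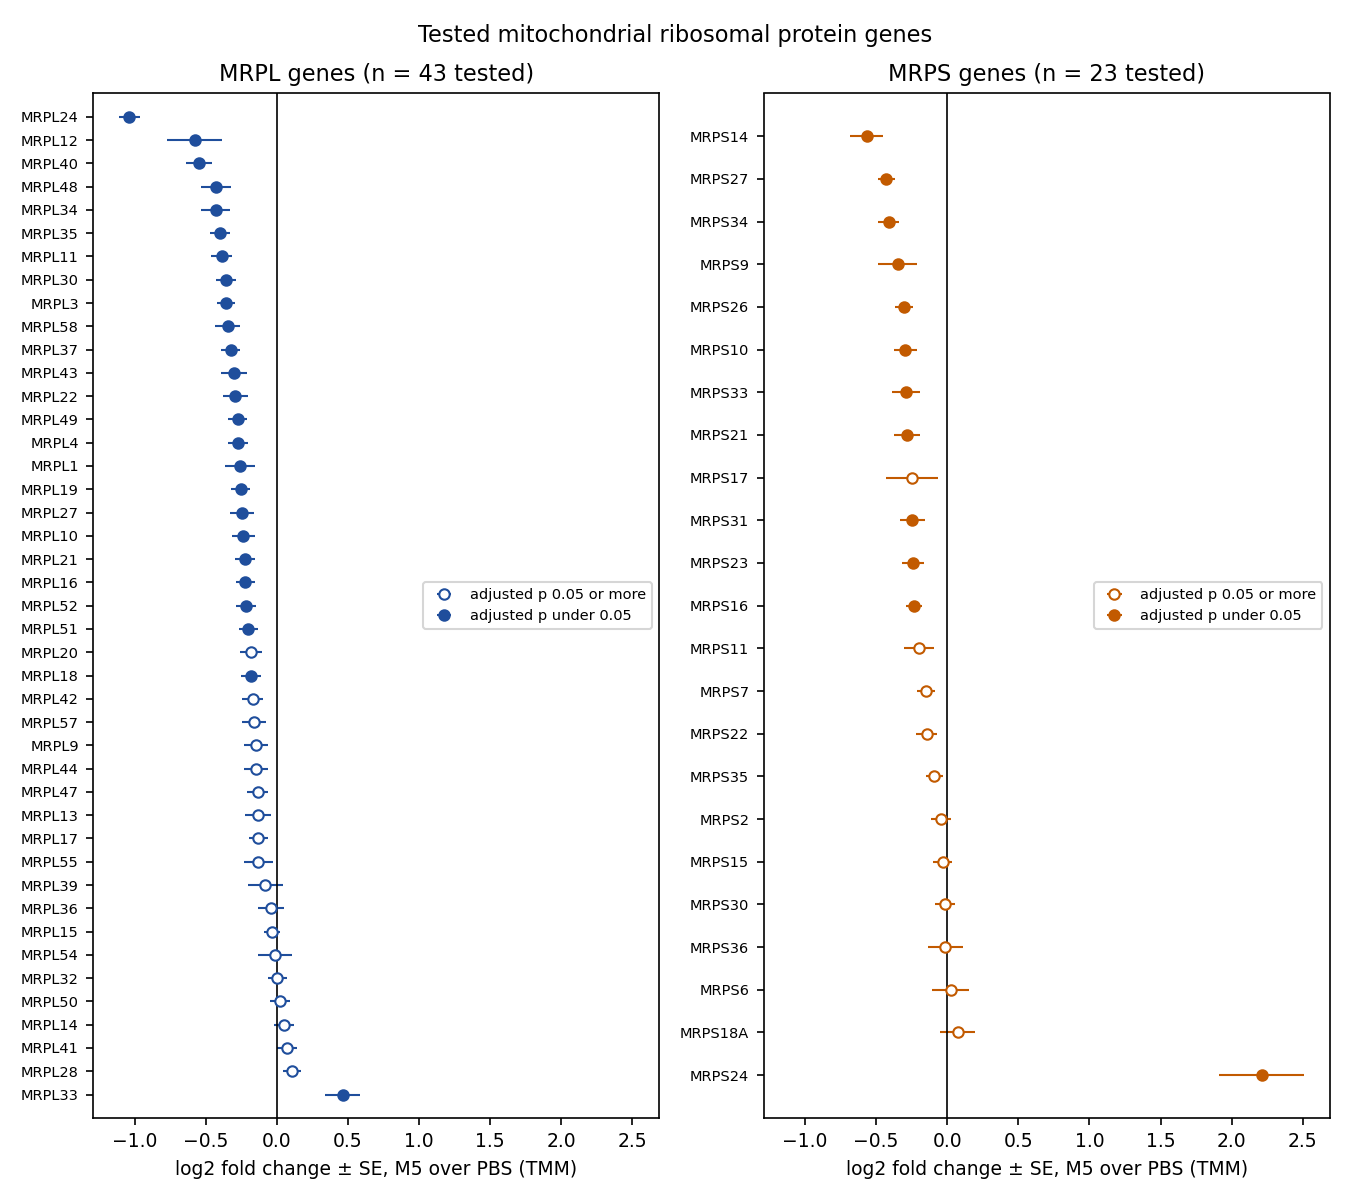
Log2 fold change (M5 over PBS, TMM scaling) on the x axis for each of the 66 tested genes, with the standard error as bars, 43 MRPL genes on the left and 23 MRPS genes on the right. Filled points had an edgeR adjusted p under 0.05; they lie left of 0 for 35 genes and right of 0 for MRPL33 and MRPS24.

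The size of this count depended on the scaling, on the test and on PBS replicate 2. With library totals in place of TMM factors, 51 members were lower and 2 higher, against 41.3% and 20.4% of all genes. With TPM scaling 55 were lower and 1 higher, against 44.1% and 18.6%. The median of all genes moved to -0.16 and -0.20 under these scalings. A change of scaling moves all log2 fold changes by nearly the same amount. The median member therefore had to stay 0.21 below the median of all genes, as under TMM. With DESeq2, 22 were lower and 2 higher, against 21.8% and 25.9%. Without PBS replicate 1, 32 members were lower and 2 higher, against 21.7% and 24.3% of all genes. Without PBS replicate 2, 20 were lower and 2 higher, against 21.5% and 24.7% of all genes. PBS replicate 2 had the higher level of the PBS pair in 48 of the 66 members. All 35 genes that fell kept a log2 fold change below 0 in each of the 4 fits that left out 1 library, and 18 of them were called in all 4.

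**Figure D2:**
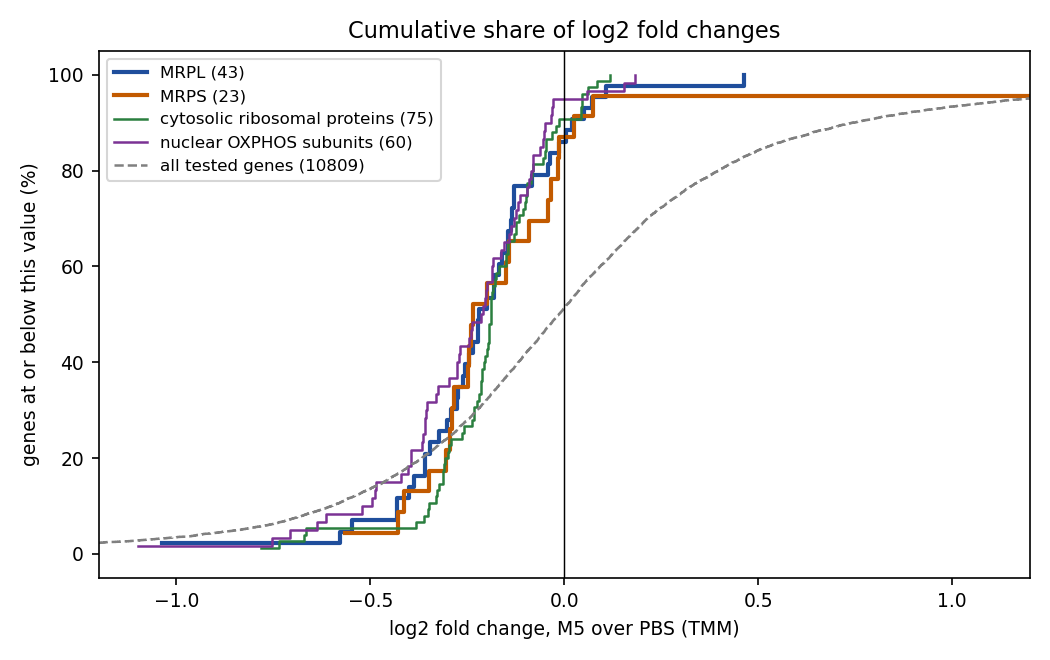
Cumulative share of genes (y axis, percent) at or below each log2 fold change (x axis, M5 over PBS, TMM scaling), for MRPL genes, MRPS genes, cytosolic ribosomal protein genes, nuclear genes of the respiratory chain and ATP synthase (OXPHOS) and all tested genes, with the number of genes in parentheses; MRPS24, at 2.21, lies beyond the axis. The MRPL and MRPS curves climb steeply just left of 0, with medians of -0.22 and -0.23 against -0.01 for all tested genes, while large changes in either direction are rarer among them.

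MRPL24 fell most. This large-subunit protein with a bacterial homologue sits near the exit of the tunnel through which the new chain leaves the ribosome. Its gene (ENSG00000143314) lies on the minus strand of chromosome 1, from 156737303 to 156741590 in GENCODE 29 on GRCh38, and shares no exon with another gene. Levels are given as FPKM, counts per kilobase of gene scaled to library size, recomputed with TMM factors. MRPL24 had 23.7 and 22.2 FPKM in M5, against 47.9 and 46.2 FPKM in PBS. The replicates lay within a few units of each other and the groups far apart. MRPL24 was 2.05-fold lower in M5, with a log2 fold change of -1.04 ± 0.07 (SE) and an edgeR adjusted p of 5.02e-10. Its call held in all 16 alternatives run. Of the 4 tested proteins listed here for the tunnel exit, MRPL24 and MRPL22 (-0.29) were lower, and MRPL17 (-0.13) and MRPL47 (-0.14) were not called.

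MRPL40 and MRPL48 belong to the central protuberance of the large subunit, the region that faces the head of the small subunit. MRPL40 had 21.0 and 23.2 FPKM in M5, against 31.7 and 32.8 FPKM in PBS, with a log2 fold change of -0.55 ± 0.09 and an edgeR adjusted p of 5.25e-05. MRPL48 had 5.51 and 6.19 FPKM in M5, against 7.48 and 8.29 FPKM in PBS, with a log2 fold change of -0.43 ± 0.11 and an edgeR adjusted p of 0.00187. In both genes every M5 library was below every PBS library. MRPL27 (-0.25) and MRPL18 (-0.18), 2 further proteins of this region, were also lower. All 4 tested genes listed here for the region were thus called, with a median of -0.34. The call of MRPL27 was lost without PBS replicate 1, PBS replicate 2 or M5 replicate 2, and that of MRPL18 without PBS replicate 2 or M5 replicate 1. Ribosome regions were assigned after the values had been seen, and the lists may not hold every protein of a region. MRPL38 and MRPL46 of the same region were not tested.

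MRPL10, MRPL11 and MRPL12 are the genes listed here for the stalk and its base, where translation factors dock on the large subunit. All 3 were lower, with a median log2 fold change of -0.39, and MRPL10 (-0.24) was no longer called without PBS replicate 2. MRPL11 had 21.8 and 25.9 FPKM in M5, against 31.4 and 31.0 FPKM in PBS, and a log2 fold change of -0.39 ± 0.08 (edgeR adjusted p 0.00025). MRPL12 had 5.96 and 5.17 FPKM in M5, against 8.33 and 8.30 FPKM in PBS, and a log2 fold change of -0.58 ± 0.19 (edgeR adjusted p 0.0157). Of the 3, MRPL12 had the widest error. In GENCODE 29, 68.2% of its exonic length is shared with AC139530.2 on the same strand, its counts were 97 to 140 per library, and its call was lost with DESeq2 (adjusted p 0.057), with no filter (0.054), without PBS replicate 1 (0.0565) and without M5 replicate 2 (0.0813).

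Among the small-subunit genes the largest fall was in MRPS14, a protein of the head of the small subunit. MRPS14 had 7.80 and 9.31 FPKM in M5, against 11.4 and 13.97 FPKM in PBS, with a log2 fold change of -0.57 ± 0.12 and an edgeR adjusted p of 0.000427. Its libraries spread more than those of MRPL24, yet the groups did not overlap. In GENCODE 29, 13.5% of its exonic length is also exon of CACYBP on the other strand, and the libraries do not tell the strands apart. Of the 5 proteins listed here for the head, MRPS14, MRPS9 and MRPS10 were lower, MRPS24 was higher and MRPS7 was not called. MRPS34, a mitochondria-specific protein of the small subunit, had 43.9 and 46.2 FPKM in M5, against 61.5 and 58.6 FPKM in PBS, and fell by 0.41 ± 0.07 on the log2 scale (edgeR adjusted p 8.44e-05). MRPS27, a pentatricopeptide-repeat protein of the small subunit, had 4.61 and 4.66 FPKM in M5, against 6.25 and 6.23 FPKM in PBS (log2 fold change -0.43 ± 0.06, edgeR adjusted p 5.59e-06). MRPS26, the most abundant MRPS gene, had 77.9 and 75.6 FPKM in M5, against 95.2 and 94.4 FPKM in PBS (log2 fold change -0.30 ± 0.06, edgeR adjusted p 0.000342). In each of these genes the M5 libraries lay below the PBS libraries. MRPS16, with a bacterial homologue and among the most abundant MRPS genes, had 45.3 and 43.7 FPKM in M5, against 51.9 and 52.8 FPKM in PBS (log2 fold change -0.23 ± 0.06, edgeR adjusted p 0.00208).

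Further falls among large-subunit genes were of similar size, with MRPL30 at -0.36 and MRPL3 at -0.36. MRPL34, a small protein with a bacterial homologue, had 15.1 FPKM in both M5 libraries, against 21.7 and 19.0 FPKM in PBS (log2 fold change -0.43). MRPL35, also with a bacterial homologue, had 14.3 and 15.1 FPKM in M5, against 18.9 and 19.9 FPKM in PBS (log2 fold change -0.40). MRPL58, a peptidyl-tRNA hydrolase built into the large subunit, had 28.2 and 28.97 FPKM in M5, against 35.6 and 37.1 FPKM in PBS (log2 fold change -0.35). The groups did not overlap in any of these 3 genes, and their edgeR adjusted p-values were 0.00156, 6.61e-05 and 0.00273. Calls that held in every alternative run, 18 in all, were those of MRPL24, MRPL40, MRPL48, MRPL34, MRPL35, MRPL11, MRPL30, MRPL3, MRPL58, MRPL37, MRPL49, MRPL4, MRPL19, MRPS14, MRPS27, MRPS34, MRPS26 and MRPS16.

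**Figure D3:**
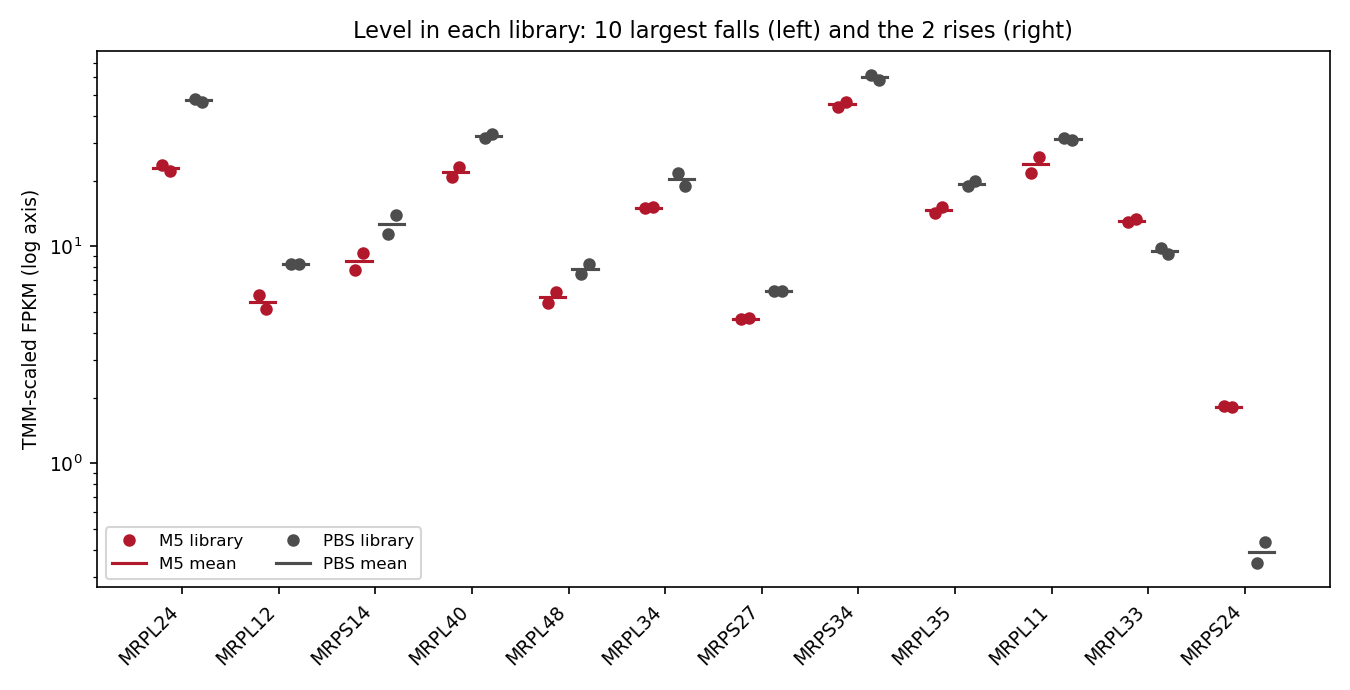
Level of the 10 genes with the largest falls and the 2 that rose in each library (y axis, FPKM on the TMM scale, log axis), with M5 libraries left of PBS libraries and a short line at each group mean. MRPL24 shows the widest gap among the genes that fell, at 23.7 and 22.2 FPKM in M5 and 47.9 and 46.2 FPKM in PBS, and MRPS24 is the gene with the widest gap in the other direction.

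Members with no called change included several of the most abundant. MRPL41, a mitochondria-specific large-subunit protein, had the highest level of all members in M5, with 98.2 and 94.8 FPKM in M5, against 91.7 and 92.0 FPKM in PBS (log2 fold change 0.07, edgeR adjusted p 0.430). MRPL15 had 74.95 and 75.98 FPKM in M5, against 77.3 and 77.5 FPKM in PBS (log2 fold change -0.04, edgeR adjusted p 0.622). Neither gene differed beyond the error of its estimate. MRPL14, the partner of the assembly factor MALSU1, had 74.7 and 67.5 FPKM in M5, against 67.8 and 69.4 FPKM in PBS (log2 fold change 0.05, edgeR adjusted p 0.554). MRPL44, a large-subunit protein with a ribonuclease III fold, had 20.8 and 21.8 FPKM in M5, against 23.7 and 23.5 FPKM in PBS (log2 fold change -0.15, edgeR adjusted p 0.162). MRPL14 overlapped between groups, and MRPL41 and MRPL15 differed by a few percent. Levels between genes rest on the deposited gene lengths, which were 0.461 times the GENCODE 29 exonic length for MRPL41 and over 1.5 times it for 6 members, among them MRPS27.

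MRPL33 and MRPS24 rose. MRPL33, a large-subunit protein with a bacterial homologue, had 12.9 and 13.3 FPKM in M5, against 9.79 and 9.25 FPKM in PBS. Its log2 fold change was 0.46 ± 0.12 with an edgeR adjusted p of 0.00406, and under TPM scaling it was 0.28 with an adjusted p of 0.0597. Of its exonic length in GENCODE 29, 21.1% is shared with BABAM2 on the same strand. MRPS24, a protein of the head of the small subunit near the path of the messenger RNA, had 1.83 and 1.82 FPKM in M5, against 0.348 and 0.436 FPKM in PBS. Its log2 fold change was 2.21 ± 0.30 with an edgeR adjusted p of 4.21e-06.

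MRPS24 rests on few reads, 85 and 88 counts in M5 and 15 and 19 counts in PBS, and passed the filter on mean FPKM only through its M5 libraries. The gene (ENSG00000062582) lies on the minus strand of chromosome 7, from 43866558 to 43869893 in GENCODE 29, and shares 23.2% of its exonic length with the read-through gene URGCP-MRPS24 on the same strand. The tables used here do not tell reads of the pair apart. Among the 37 members with no overlapping exon, 35 were tested, 21 of them were lower and 0 higher. Among the 39 with one, 31 were tested, 14 lower and 2 higher. No member with at least 500 counts on average was higher, and 28 of those 50 were lower. For these subsets the shares over all genes of the same kind were not computed.

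The promoter windows of genes from both directions are printed here because most called members were lower while MRPL33 and MRPS24 were higher. Windows run from 250 bases before the annotated start to 50 bases after it (RefSeq, GRCh38.p14), on the gene's strand, and the 5 genes were chosen after their values and matches were seen. Capitals mark the ETS site CCGGAAG or, on the other strand, CTTCCGG, and in MRPS24 the YY1 site AAGATGG. MRPL24 holds neither. The windows lie at chr1:156741039-156741338 (minus strand) for MRPL24, chr22:19432295-19432594 (plus strand) for MRPL40, chr16:1773085-1773384 (minus strand) for MRPS34, chr2:27771469-27771768 (plus strand) for MRPL33 and chr7:43869468-43869767 (minus strand) for MRPS24.
MRPL24: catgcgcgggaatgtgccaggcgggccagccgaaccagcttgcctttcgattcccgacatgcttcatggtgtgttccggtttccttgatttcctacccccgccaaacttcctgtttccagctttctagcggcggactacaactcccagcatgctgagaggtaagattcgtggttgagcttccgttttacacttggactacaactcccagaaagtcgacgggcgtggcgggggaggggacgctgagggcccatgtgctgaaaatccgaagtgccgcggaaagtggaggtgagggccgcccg
MRPL40: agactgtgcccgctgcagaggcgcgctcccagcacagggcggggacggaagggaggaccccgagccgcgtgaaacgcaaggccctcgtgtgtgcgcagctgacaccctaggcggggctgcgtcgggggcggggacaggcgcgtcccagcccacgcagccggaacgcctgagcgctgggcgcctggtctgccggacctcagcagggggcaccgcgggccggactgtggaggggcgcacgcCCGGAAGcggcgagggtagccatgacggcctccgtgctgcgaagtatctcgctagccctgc
MRPS34: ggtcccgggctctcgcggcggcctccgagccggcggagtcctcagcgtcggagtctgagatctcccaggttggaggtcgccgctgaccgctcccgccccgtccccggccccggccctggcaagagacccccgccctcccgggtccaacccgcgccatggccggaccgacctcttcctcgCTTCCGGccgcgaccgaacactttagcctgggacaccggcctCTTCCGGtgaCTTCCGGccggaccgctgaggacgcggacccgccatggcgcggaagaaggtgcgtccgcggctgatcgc
MRPL33: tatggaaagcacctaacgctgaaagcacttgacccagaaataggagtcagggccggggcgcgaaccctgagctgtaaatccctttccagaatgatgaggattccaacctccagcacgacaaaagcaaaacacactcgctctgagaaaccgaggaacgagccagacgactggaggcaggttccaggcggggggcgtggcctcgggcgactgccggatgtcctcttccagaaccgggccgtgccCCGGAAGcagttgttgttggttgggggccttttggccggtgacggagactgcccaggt
MRPS24: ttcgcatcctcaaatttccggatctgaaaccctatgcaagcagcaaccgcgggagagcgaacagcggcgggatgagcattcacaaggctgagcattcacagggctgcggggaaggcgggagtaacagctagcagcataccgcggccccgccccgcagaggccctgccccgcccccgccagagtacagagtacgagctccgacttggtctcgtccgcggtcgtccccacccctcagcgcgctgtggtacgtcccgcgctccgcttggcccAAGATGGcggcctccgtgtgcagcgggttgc

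MRPL40, which fell, and MRPL33, which rose, each hold 1 ETS site just before the start, at bases 240 to 246 and 243 to 249 of the window. MRPS34 holds 3 on the other strand, beginning at bases 180, 222 and 232. RefSeq windows were found for 67 of the 76 members, 82 windows in all, and were set beside 22182 windows of all protein-coding genes. CCGGAAG, the core bound by ETS factors such as GABP, occurred on either strand in 30 of the 82, 36.6%, against 12.8% of all windows. It occurred in 19 of 40 windows of members that were lower, 47.5%, and in 9 of 34 windows of the other tested members, 26.5%. AAGATGG, the core of a site of the factor YY1, occurred in 25 of the 82, 30.5%, against 6.04% of all windows. It occurred in 10 of 40 windows of members that were lower, 25%, and in 11 of 34 windows of the other tested members, 32.4%.

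GCATGCG, the core of a site of NRF1, occurred in 7 member windows, 8.54%, against 4.63% of all windows. CACGTG, an E-box, occurred in 11% of member windows, against 8.34%, and GGGCGG, a GC box, in 58.5%, against 56.3%. The YY1 and NRF1 letters were shortened after longer forms had been searched. All of these motifs were searched on both strands, none of the 5 contains another, and a match of letters does not show that a factor binds there.

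Both subunits held more lower than higher genes. Of the MRPL genes, 24 of 43 tested were lower and 1 higher, with a median log2 fold change of -0.22 and quartiles of -0.31 and -0.13. Of the MRPS genes, 11 of 23 were lower and 1 higher, with a median of -0.23 and quartiles of -0.29 and -0.04. The difference between the medians was not tested, and without M5 replicate 2 they were -0.23 for MRPL and -0.12 for MRPS genes. Summed over all MRPL genes the level was 1087 and 1099 FPKM in M5, against 1229 and 1259 FPKM in PBS, 12.2% lower. Summed over all MRPS genes it was 435 and 440 FPKM in M5, against 499 and 521 FPKM in PBS, 14.2% lower. Each sum was below both PBS libraries in both M5 libraries.

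**Figure D4:**
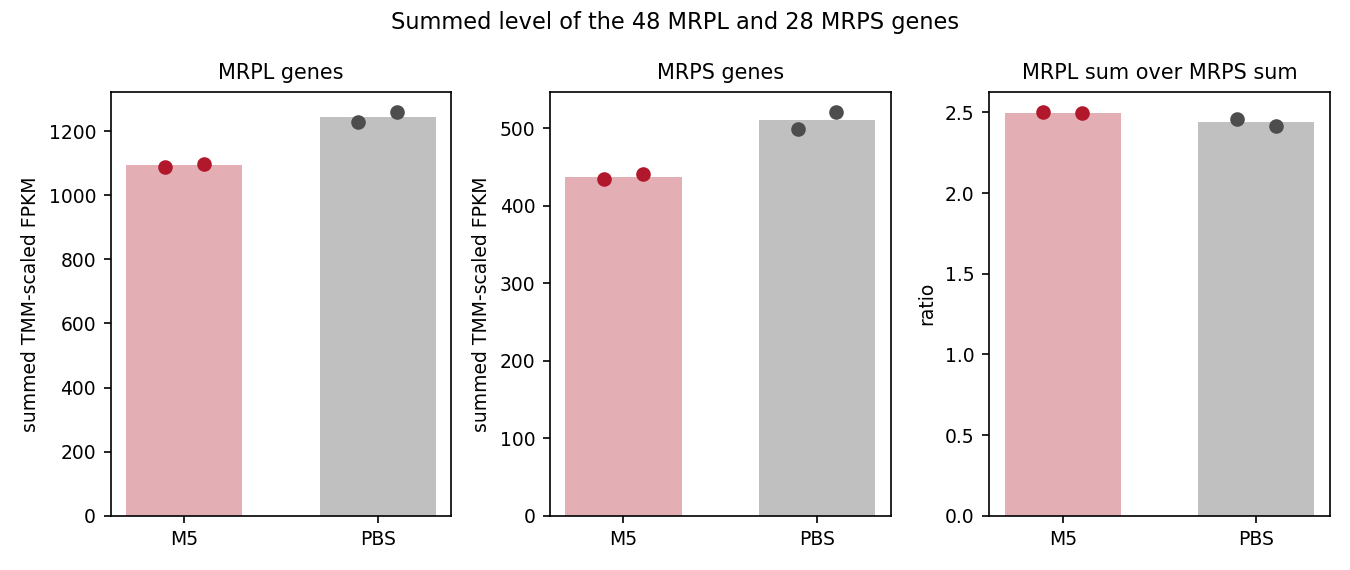
Summed level of MRPL genes and of MRPS genes, and their ratio, in each library (y axes, FPKM on the TMM scale and a ratio without unit), with bars at the group mean, points for single libraries and M5 left of PBS. Both sums are lower in the 2 M5 libraries, and the ratio is 2.50 in both, against 2.46 and 2.42 in PBS.

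The ratio of the MRPL sum to the MRPS sum was 2.50 in both M5 libraries, against 2.46 and 2.42 in PBS, a log2 difference of 0.03. As a ratio of summed counts it was 2.07 in both M5 libraries, against 2.09 and 2.05 in PBS, so that the M5 values lay between those of PBS. No test was made of it; with 2 against 2 libraries an exact two-sided permutation test cannot go below 0.333. As a share of all counts in a library, which is relative to the library total rather than to TMM, members took 0.316% and 0.323% in M5, against 0.405% and 0.418% in PBS.

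Symbols do not always name the subunit. Structures place MRPS30 and MRPS18A in the large subunit, and MRPS36 is a component of the oxoglutarate dehydrogenase complex. None of the 3 was called. MRPS30 had a log2 fold change of -0.01 (edgeR adjusted p 0.880) and MRPS36 of -0.01 (0.938). MRPS18A had 13.8 and 14.1 FPKM in M5, against 12.1 and 14.4 FPKM in PBS, a log2 fold change of 0.07 (edgeR adjusted p 0.642). With genes placed by structure, 24 of 45 large-subunit genes and 11 of 20 small-subunit genes were lower, and the ratio of sums was 2.79 and 2.81 in M5, against 2.70 and 2.67 in PBS. By origin, 21 of 39 tested members with a bacterial homologue were lower and 2 higher, and 14 of 25 mitochondria-specific members were lower and 0 higher, each with a median of -0.22.

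The 10 members that were not tested had 0 to 282 counts in a library, and 8 of them share exons with another gene. MRPS18B (0 and 3 counts in M5, 0 and 2 in PBS) and MRPL45 (5 and 4 counts in M5, 4 and 5 in PBS) were nearly at 0. Both have a transcript placed outside the primary assembly. So does MRPS36, which had 330 and 400 counts in M5, against 319 and 354 in PBS, and was tested. MRPL2 had 0 and 10 counts in M5, against 7 and 6 in PBS. MRPS18C, MRPL38, MRPL23 and MRPS28 had 12 to 30 counts in M5, against 11 to 22 in PBS, and MRPL46 had 78 and 94 in M5, against 86 and 81 in PBS. Of these 5 only MRPL38 had both M5 libraries below both PBS libraries in level, with 17 and 13 counts in M5, against 17 and 19 in PBS. MRPS5 had 206 and 204 counts in M5, against 274 and 239 in PBS, and MRPS25 had 238 and 250 in M5, against 273 and 282 in PBS. With no filter, 21 of the 76 members were lower, against 9.99% of all genes, and 2 higher, against 12.4%. None of the 10 was called then, and MRPS5 came closest with an edgeR adjusted p of 0.0560. MRPL53 and MRPS12 were not analysed here.

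Genes that build, feed and use the mitochondrial ribosome were compared in 9 lists, whose shares are to be read against the 27.1% of all tested genes that were lower and the 28.8% that were higher. Of factors that assemble it, 13 of 28 tested were lower and 1 higher, with a median log2 fold change of -0.24, and without PBS replicate 2 the number lower was 8. TFB1M, which methylates the ribosomal RNA of the small subunit, had 4.06 and 4.04 FPKM in M5, against 7.16 and 7.77 FPKM in PBS (log2 fold change -0.88 ± 0.11, edgeR adjusted p 1.02e-06). METTL15, another methyltransferase acting on that RNA, had 2.21 and 2.03 FPKM in M5, against 3.35 and 3.64 FPKM in PBS (-0.72 ± 0.11, edgeR adjusted p 2.32e-05). MTERF3, a regulator of mitochondrial transcription and of ribosome assembly, fell by 0.55 on the log2 scale. The 5 ribosomal proteins with other symbols gave 1 lower, PTCD3 (-0.19), and 0 higher, and the call of PTCD3 was lost without PBS replicate 1 or M5 replicate 1.

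Of translation factors, 5 of 13 were lower and 1 higher (median -0.13), and without PBS replicate 1 the number lower was 3. OXA1L, which inserts newly made chains into the inner membrane, had 24.1 and 24.6 FPKM in M5, against 35.5 and 33.8 FPKM in PBS (-0.51 ± 0.06, edgeR adjusted p 6.15e-07). MRRF, which recycles ribosomes after release of the chain, fell by 0.39 and MTRF1L, a release factor, rose by 0.38 on the log2 scale. The call of MTRF1L was lost with library totals (0.23), TPM scaling (0.20) and limma, and without PBS replicate 1 or M5 replicate 2. Of 20 genes listed for the charging of mitochondrial transfer RNAs, 11 were lower and 0 higher (median -0.18). The list holds aminoacyl-tRNA synthetases and also QRSL1, GATB and GATC, which are not synthetases, and QRSL1 and GATB were lower. Fewer of the 20 were called without PBS replicate 1 or without PBS replicate 2, where the medians were -0.19 and -0.17. EARS2, the glutamyl enzyme, had 6.22 and 5.87 FPKM in M5, against 8.79 and 8.998 FPKM in PBS (-0.56 ± 0.08, edgeR adjusted p 4.60e-06), with the groups apart. PARS2, the prolyl enzyme, also fell by 0.56, and its call was lost without PBS replicate 1.

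Of genes for mitochondrial transcription and messenger RNA, 7 of 17 were lower and 1 higher (median -0.11). The list also holds subunits of the mitochondrial DNA polymerase and the DNA helicase TWNK. Among the falls were POLG2 (-0.58), a subunit of that polymerase, and SLIRP (-0.39), which binds mitochondrial messenger RNA. MTPAP, the mitochondrial poly(A) polymerase, was also lower (-0.32). The gene that rose was POLG, another subunit of the same DNA polymerase (0.31, edgeR adjusted p 0.000428). TFAM, which packages mitochondrial DNA and starts its transcription, had 24.4 and 26.1 FPKM in M5, against 29.6 and 28.9 FPKM in PBS (log2 fold change -0.21, edgeR adjusted p 0.0054). TFAM and POLG were named after their values were seen. Of transcriptional regulators of mitochondrial biogenesis, 3 of 11 were lower and 3 higher with TMM (median 0.07), shares near those of all tested genes. With TPM scaling 5 were lower and 1 higher (median -0.12), and without PBS replicate 1 the counts were 1 and 2. ATF5, a factor of the mitochondrial stress response, rose by 0.78 on the log2 scale, and PPARGC1B, a coactivator, fell by 0.48. ESRRA, a nuclear receptor that binds such coactivators, had a log2 fold change of 0.28, a call that was lost with library totals, TPM scaling and limma.

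Of the 13 genes whose messages this ribosome translates, 6 were lower and 2 higher (median -0.12). Fewer of these 13 were lower without PBS replicate 1 or without PBS replicate 2, where the medians were -0.098 and -0.095. MT-ND2 had 1527 and 1726 FPKM in M5, against 2174 and 2002 FPKM in PBS (-0.36 ± 0.06, edgeR adjusted p 4.25e-05), and MT-CO3 fell by 0.20 on the log2 scale, a call lost without PBS replicate 1. MT-ND6 had 1098 and 1017 FPKM in M5, against 752 and 681 FPKM in PBS (0.56 ± 0.06, edgeR adjusted p 2.03e-07). MT-ND6 lies on the other strand from the remaining messages, and reads from the 2 strands cannot be told apart in these libraries.

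Cytosolic ribosomal protein genes and nuclear genes of the respiratory chain were set beside them. Of cytosolic ribosomal protein genes, 46 of 75 were lower and 0 higher (median -0.19), but without PBS replicate 2 only 18 were lower, 24%, against 21.5% of all genes. RPL22, a protein of the cytosolic large subunit, had 13.4 and 13.8 FPKM in M5, against 21.5 and 21.8 FPKM in PBS (-0.67 ± 0.06, edgeR adjusted p 3.03e-08), and its family members RPS2 (-0.78) and RPL39L (-0.74) were lower as well. RPS2 had only 46 and 57 counts in M5 and 86 and 76 in PBS, near-identical copies may share its reads, and its call was lost without PBS replicate 1 or M5 replicate 1. Of nuclear genes for the respiratory chain and ATP synthase, 32 of 60 were lower and 1 higher (median -0.21), and without PBS replicate 2 the number lower was 21. ATP5MC2, a gene for the membrane ring of ATP synthase, had 8.69 and 10.5 FPKM in M5, against 20.8 and 20.2 FPKM in PBS (-1.10 ± 0.08, edgeR adjusted p 1.55e-09). ATP5MC1, for the same ring, fell by 0.75, and COX7B, a subunit of cytochrome c oxidase, by 0.71 on the log2 scale.

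**Figure D5:**
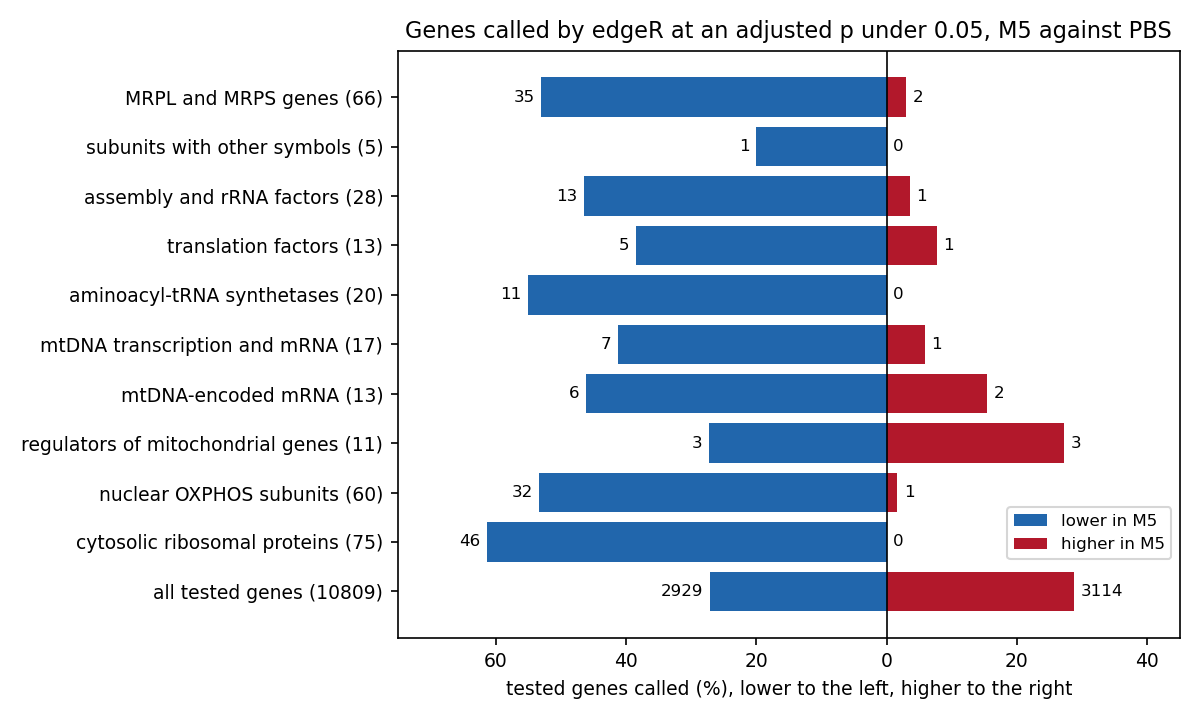
Share of tested genes in each list (x axis, percent) that were lower (bars to the left of 0) or higher (bars to the right) in M5 than in PBS by edgeR at an adjusted p under 0.05, with the number tested in parentheses, the number called at each bar and all tested genes at the bottom. Among MRPL and MRPS genes together 35 of 66 were lower and 2 higher, and cytosolic ribosomal protein genes show a similar shape with 46 of 75 lower and 0 higher.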

How the data were processed

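Per the file headers, each deposited file holds a read count and an FPKM for the same 27356 genes. HISAT2, HTSeq 0.13.5 and GRCh38 are listed, with no role, in the submitters' processing notes. No annotation release or strand setting is given in the sources used here, and the kit named in the labels' protocols does not mark strand. Deposited counts were tested with edgeR 4.0.16 (glmQLFit and glmQLFTest, TMM, two-sided) in R 4.3.3, on 10809 genes with a mean deposited FPKM of at least 1, with Benjamini-Hochberg adjustment over all of them. Levels are counts per effective library size and deposited gene length. A standard error is the size of a log2 fold change over the root of its F statistic. The step was tested on simulated counts, with 50 genes changed by each of 4 folds. It recovered 10 of those changed 1.2-fold, 35 at 1.5-fold, 44 at 2-fold and 50 at 4-fold, with 2 false calls. A member that was not called is thus not shown to be unchanged. Only 141 of 10809 genes were called in the simulation, far fewer than in the data, so its rates need not hold there. GENCODE 29 gave positions and overlaps. Alternatives used limma 3.58.1 on log2(FPKM + 1, 0.1 or 0.5), DESeq2 1.42.0, other scalings and filters, a replicate block and leaving out each library. Replicates differed by more than sampling noise (median chi-square per gene 1.75 in M5 and 0.996 in PBS, against 0.455).

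Members, lists, structural regions and motifs were chosen with earlier results of these data known, and a few list entries were corrected after the tables were read. Named genes are up to 10 called members with the largest falls and rises. The 3 MRPL and 3 MRPS genes with the highest mean FPKM were named too. So were members not tested, members whose place or role differs from their symbol, and up to 3 called genes per list. Other proteins of the regions described, TFAM, POLG and the genes whose calls held throughout were named after their values were seen. 1 gene that this rule selects is not reported here.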

Additional observations from a re-analysis of the deposited data

How the results depend on the processing

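Against 35 lower under edgeR with TMM, 22 were lower with DESeq2 (21.8% of all genes), 53, 53 and 54 with limma at pseudocounts of 1, 0.1 and 0.5, 55 with TPM scaling, 21 with no filter (9.99% of all genes), 21 at an adjusted p of 0.01 and 20 to 33 when 1 library was left out, the lowest without PBS replicate 2. Of all 10809 tested genes, 4122, 4098 and 4114 were lower with limma at these pseudocounts. With TPM scaling 4767 of them were lower, and at an adjusted p of 0.01 it was 2240. Against 2 members higher, there was 1 with TPM scaling and 1 when the mean FPKM had to reach 5. Chosen after seeing the data were the members with no overlapping exon (21 lower, 0 higher) and those with at least 500 counts (0 higher). The shares over all genes of these kinds were not computed. Over all genes, 3114 were higher and 2929 lower with TMM, 2201 and 4463 with library totals, 2011 and 4767 with TPM scaling, and 2010, 2005 and 2007 were higher and 4122, 4098 and 4114 lower with limma; leaving out 1 library gave 2630 to 3123 higher and 2323 to 2894 lower. Over the 9 lists together, 9 were higher and 124 lower; 2, 2 and 2 were higher with limma, 3 with library totals and 2 with TPM scaling, 191 were lower with TPM scaling, and leaving out 1 library gave 6 to 12 higher and 69 to 140 lower. The MRPL median moved to -0.37 and -0.36 with limma at 0.1 and 0.5, -0.37 with library totals and -0.40 with TPM scaling, and to between -0.25 and -0.18 without 1 library. The MRPS median (-0.23) was -0.33, -0.38 and -0.36 with limma, -0.39 with library totals and -0.42 with TPM scaling, and lay between -0.25 and -0.12 without 1 library. The log2 ratio of MRPL to MRPS sums was 0.03, reversed to -0.0014 with summed counts, and was 0.059 with genes placed by structure. Beyond the construction of each alternative, the cause was not tested.

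The labels do not say whether equal replicate numbers pair the libraries. Deviations of M5 1 and PBS 1 correlated at -0.016, and with 2 libraries a group this cannot show whether they were prepared together. With a replicate block 37 members were lower and 2 higher, against 2959 and 3134 of all 10809 tested genes.

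Low counts limit what can be said of MRPS24, MRPL12 and most of the 10 members not tested, and the reason for them was not tested. MRPS5 and MRPS25 had more counts in every library than MRPL12, which was tested. Their deposited lengths, by which FPKM divides, were 2.045 and 3.401 times the GENCODE 29 exonic length. With 2 libraries a group, the spread is poorly known, and 18 of the 35 falls were called in all 4 fits that left out 1 library. Counts depend on how reads with several alignments were treated, on which no source used here says anything.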

Other observations

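Many of these genes start next to a gene on the other strand. In GENCODE 29, 27 members had a protein-coding gene starting within 1000 bp on the opposite strand, in 27 pairs (1 of them between MRPL46 and MRPS11), and in 18 pairs both genes were tested. Of the 18 partners, 8 were lower in M5 (44.4%), 3 higher and 7 not called. Over all tested genes, 27.1% were lower and 28.8% higher, and the counts of partners are to be read against these shares. Of the 10 pairs in which the member was lower, the partner was lower in 4, higher in 2 and not called in 4.

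Both genes were lower in the pairs MRPL27 with EME1, a DNA repair nuclease subunit (log2 fold change of the partner -1.09), MRPL43 with TWNK, the mitochondrial DNA helicase (-0.25), MRPL51 with NCAPD2, a condensin subunit (-0.74), and MRPS27 with PTCD2 (-0.40). In GENCODE 29, other-strand exons cover 36.9% of the exonic length of MRPL43 (SEMA4G and TWNK) and 31.3% of that of MRPL51 (NCAPD2). For MRPS27 the share is 2.92% (PTCD2). Reads of such stretches cannot be assigned to 1 strand in these libraries, so the 2 falls of such a pair may not be separate. MRPL27 shares no exon with another gene. The partner was higher in the pairs MRPL21 with IGHMBP2 (0.37) and MRPS34 with EME2 (0.38). Neither MRPL21 nor MRPS34 shares an exon with another gene. EME2 had 3.01 and 3.27 FPKM in M5, against 2.54 and 2.29 FPKM in PBS, beside the fall of MRPS34. Across the 18 pairs the log2 fold changes had a Pearson r of 0.133 and a Spearman rho of 0.092; the points share libraries and are genes, not replicates.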
